A study of Mus musculus with 14 samples.

Results

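Coenzyme A (CoA) synthesis and turnover was followed in the liver of mice with or without hepatic AMP-activated protein kinase (AMPK). The genes were chosen by symbol, as members of the pathway, and not by a threshold on measured values: the pantothenate kinase genes Pank1, Pank2, Pank3 and Pank4, the later synthesis genes Ppcs and Coasy, the pantetheinase genes Vnn1 and Vnn3, and the CoA hydrolase genes Nudt7 and Nudt19. Of these 10 genes, 9 had a row among the 19505 named genes, and Coasy was not analysed here. CoA carries acyl groups in fatty acid oxidation, the citric acid cycle and lipid synthesis, and the liver is a tissue with a large CoA pool. It is made from the vitamin pantothenate, whose phosphorylation by pantothenate kinases is the controlled entry step, restrained by CoA and its thioesters. Nudix hydrolases break CoA down inside organelles, and pantetheinases outside the cell cleave its breakdown product pantetheine back to pantothenate and cysteamine.

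RNA from the livers of male C57BL/6 mice homozygous for floxed alleles of AMPK alpha1 and alpha2 (Prkaa1 and Prkaa2) was hybridised to 14 Affymetrix arrays. Every mouse of either group ate a high-fat diet (60% of calories) from 6 weeks of age, was injected with an AAV8-TBG virus at 10 weeks, and then took metformin at 50 mg/kg/day for 3 weeks before a 16 h fast. The virus was an empty vector in 6 control samples (TGB_empty-vector WT in the labels) and carried Cre in 8 knockout samples (TGB_Cre KO). TBG directs expression to hepatocytes, so other liver cells keep both genes, and controls also carry the floxed alleles, the virus and the drug. The labels give an age of 4 months, and no label says whether 2 samples can share a mouse, so the p-values below measure only how these samples spread, part of which may be technical. The comparison asks whether loss of AMPK in metformin-treated hepatocytes went with a different expression of the CoA genes, in the setting that the series title names, suppression of liver glucose production by metformin.

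Values are log2 expression after robust multi-array averaging (RMA). The arrays split into 2 sets unnamed in the labels, with correlations over all rows of 0.988 to 0.994 within a set and 0.951 to 0.963 across sets. Each set held 3 control and 4 knockout samples: control 1 to 3 with knockout 1 to 4 in set 1, and control 4 to 6 with knockout 5 to 8 in set 2. Each difference below is a log2 difference, knockout minus control, with its standard error (SE), from limma with the set as a term. Adjusted p-values follow Benjamini and Hochberg across the 19505 genes, and a gene was called at an adjusted p under 0.05. Prkaa2 differed by -1.13 ± 0.08 (limma, adjusted p = 1.92e-06) and Prkaa1 by -0.67 ± 0.13 (limma, adjusted p = 0.0302), with each of the 8 knockout samples under all controls of its set in either gene. Both calls were lost without the set term (limma, adjusted p = 0.519 for Prkaa2 and 0.987 for Prkaa1). The Prkaa1 call was also lost without control 1, 2, 4, 5 or 6 or without knockout 2, 4 or 5, with adjusted p up to 0.0770 in limma. As a check of the tissue, 9 of 9 measured hepatocyte markers averaged 10.2 to 13.7, above every array median of named genes (5.82 to 5.97). None of them passed the test, which 0.702% of all genes passed. In whole liver, fewer cells of a type and less RNA per cell cannot be told apart.

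None of the 9 measured CoA genes passed the test: limma called 0 higher and 0 lower, where it called 0.702% of all genes (0.431% higher and 0.272% lower). At an unadjusted p under 0.05 it had 1 of the 9, Ppcs, against 10.4% of all genes (5.53% higher in knockout samples). The exact permutation test within the sets (1225 splits) had 2 of the 9, Ppcs and Pank1, at an unadjusted p under 0.05. Over all genes this share was 10.9%. After adjustment it called 0 of the 9 and 0 of all genes. Its smallest adjusted p over all genes was 0.0856, also for both targeted genes, so the adjusted test could call no gene here. Differences ran from -0.18 for Pank4 to 0.22 for Ppcs, 6 positive (as were 50.6% of all genes) and 3 negative, with a median of 0.036 beside 0.0016 over all genes. The median size of the difference without its sign was 0.12 for the CoA genes and 0.083 over all genes. All 9 intervals at 95% confidence lay within a 1.5-fold change in either direction, as did those of 95.8% of all genes, with the widest bounds at -0.41 (Pank4) and 0.38 (Ppcs). For Nudt7 these values are those of its brightest row. Another of its rows, described below, differed by -0.60 with a 95% interval of -0.96 to -0.24, which goes beyond 1.5-fold. Without the set term the median SE of the 9 genes was 0.151 instead of 0.0773, and limma called 0 of them (0 at an unadjusted p under 0.05, 3.36% of all genes).

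**Figure D1:**
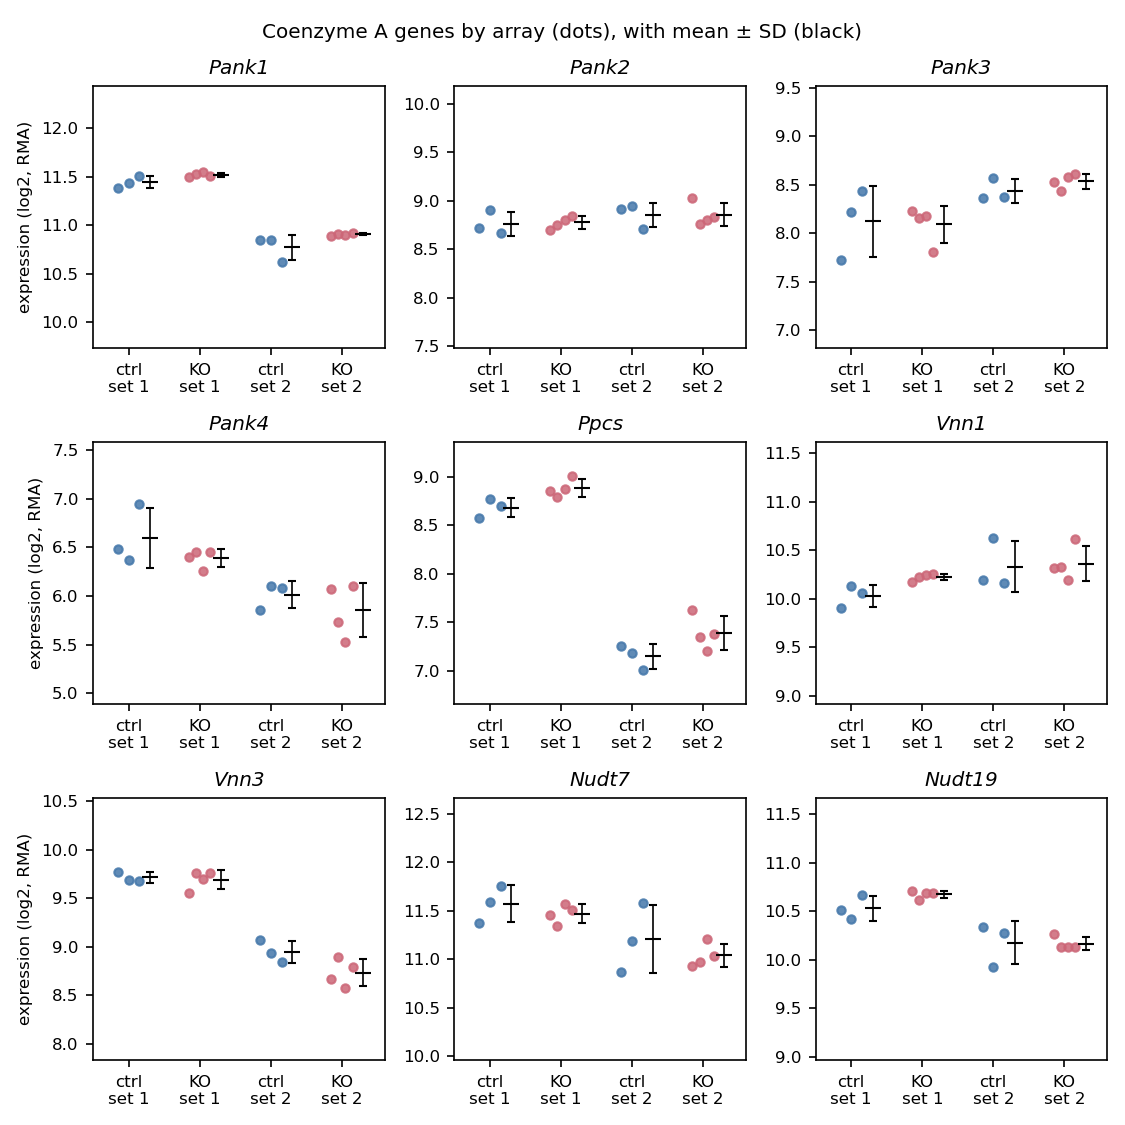
Log2 expression of the 9 measured CoA genes in each of the 14 arrays (dots), by group and array set, with the mean and SD in black. Every panel spans the same log2 range. The gap between sets exceeds the gap between groups for all 9 genes and is widest for Ppcs, Vnn3 and Pank1. No gene separates all knockout from all control arrays in both sets.

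Ppcs and Pank1 had the smallest limma and permutation p-values of the 9 genes, so the start regions of these 2 genes are shown. The windows hold 250 bases before and 50 after an annotated RefSeq start (GRCm38.p6), and 8 of the 10 genes have at least 1 window in that table. Pank1 has windows at chr19:34877868-34878167 and chr19:34879406-34879705 and Ppcs at chr4:119422371-119422670, all on the minus strand. Capitals mark matches, on either strand, to AGGTCA (the nuclear receptor half-site), CCAAT or TATAAA.
Pank1, start at the lower coordinate: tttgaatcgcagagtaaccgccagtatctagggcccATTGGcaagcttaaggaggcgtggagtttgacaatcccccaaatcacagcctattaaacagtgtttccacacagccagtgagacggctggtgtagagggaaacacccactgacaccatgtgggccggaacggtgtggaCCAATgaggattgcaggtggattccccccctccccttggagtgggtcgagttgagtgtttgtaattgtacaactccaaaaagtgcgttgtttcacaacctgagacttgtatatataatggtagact
Pank1, start at the higher coordinate: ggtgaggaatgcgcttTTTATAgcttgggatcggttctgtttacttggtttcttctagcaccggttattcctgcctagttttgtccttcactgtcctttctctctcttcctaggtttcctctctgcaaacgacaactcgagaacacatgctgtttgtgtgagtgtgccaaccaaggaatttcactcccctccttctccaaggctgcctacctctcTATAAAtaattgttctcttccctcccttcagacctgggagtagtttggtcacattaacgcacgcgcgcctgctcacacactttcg
Ppcs: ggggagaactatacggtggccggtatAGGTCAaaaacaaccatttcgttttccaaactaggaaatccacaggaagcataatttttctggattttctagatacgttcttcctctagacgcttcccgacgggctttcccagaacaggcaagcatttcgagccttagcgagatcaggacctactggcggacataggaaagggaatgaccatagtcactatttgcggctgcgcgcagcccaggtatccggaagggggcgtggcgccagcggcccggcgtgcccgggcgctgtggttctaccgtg
The Ppcs window held AGGTCA once, its first base 224 bases before the start. Of all 32817 windows 16.3% held it at least once, at any place and on either strand. A direct repeat of AGGTCA with 1 base between the copies, the form bound by PPAR alpha with its partner RXR, was in 0 of the 12 windows of the CoA genes and in 0.0396% of all windows. TATAAA stood 35 bases before the Pank1 start at the higher coordinate, with a reverse-strand match at 234 bases. CCAAT stood 76 bases before the start at the lower coordinate, with a reverse-strand match at 214 bases. At any place and on either strand, 13.6% of all windows hold TATAAA and 37.4% hold CCAAT. Shares at these positions were not computed. A match is only a match of letters, and its absence says nothing about a factor.

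Pank1 encodes the main pantothenate kinase of the liver and is known as a target of PPAR alpha, the fasting-induced receptor of fat oxidation. Pank1 lay in set 1 at 11.39, 11.44 and 11.51 in control 1 to 3 and at 11.50, 11.53, 11.55 and 11.51 in knockout 1 to 4, and in set 2 at 10.85, 10.85 and 10.62 in control 4 to 6 and at 10.89, 10.91, 10.90 and 10.92 in knockout 5 to 8. In set 2 all 4 knockout samples were above every control, and in set 1 knockout 2 and 3 were, while knockout 1 and 4 lay within the control range. In set 1 the controls averaged 11.44 ± 0.06 (SD, n = 3) against 11.52 ± 0.02 (SD, n = 4) for the knockouts. In set 2 the controls averaged 10.77 ± 0.13 (SD, n = 3) against 10.91 ± 0.01 (SD, n = 4). The difference was 0.10 ± 0.06 (limma, adjusted p = 0.607), a 1.08-fold level with a 95% interval of 0.983 to 1.18. The exact permutation test within the sets gave p = 0.00245 (adjusted p = 0.129 over all genes, exact permutation). The smallest p these permutations can give is 0.000816, and their smallest adjusted p over all genes was 0.0856.

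The other pantothenate kinase genes are Pank2, whose human protein works in mitochondria, Pank3, a cytosolic form, and Pank4, whose protein lacks pantothenate kinase activity and acts as a phosphatase of phosphopantetheine. Pank2 differed by 0.0076 ± 0.07 (limma, adjusted p = 0.989), with a 95% interval of 0.907 to 1.11 in fold. Its 14 values overlapped in both sets, from 8.67 to 8.94 in controls and from 8.70 to 9.03 in knockout samples. Pank3 differed by 0.036 ± 0.10 (95% interval -0.18 to 0.26; limma, adjusted p = 0.954), with 7.72 in control 1, well under the 8.22 and 8.43 of the other controls of set 1. Without control 1 the Pank3 difference was -0.044, so its sign rested on that sample. Pank4 lay in set 1 at 6.48, 6.37 and 6.95 in control 1 to 3 and at 6.40, 6.46, 6.26 and 6.46 in knockout 1 to 4, and in set 2 at 5.86, 6.11 and 6.08 in control 4 to 6 and at 6.07, 5.73, 5.52 and 6.10 in knockout 5 to 8. Of the knockout samples, 3 lay below every control of their own set, and the controls and knockout samples overlapped in both sets. Pank4 differed by -0.18 ± 0.11 (limma, adjusted p = 0.618), a 0.881-fold level with a 95% interval of 0.752 to 1.03.

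Ppcs encodes phosphopantothenoylcysteine synthetase, which joins cysteine to phosphopantothenate after the kinase step. Ppcs lay in set 1 at 8.58, 8.78 and 8.70 in control 1 to 3 and at 8.85, 8.79, 8.88 and 9.01 in knockout 1 to 4, and in set 2 at 7.26, 7.19 and 7.01 in control 4 to 6 and at 7.62, 7.35, 7.21 and 7.38 in knockout 5 to 8. All 4 knockout samples of set 1 and 3 of the 4 of set 2 were above every control of their own set, and knockout 7 was inside the control range. At least 7 of the 8 knockout samples were above every control of their set for 2.18% of all genes, and all 8 for 0.774%. Ppcs differed by 0.22 ± 0.08 (limma, unadjusted p = 0.0119, adjusted p = 0.281), by 0.20 in set 1 and 0.24 in set 2, a 1.16-fold level with a 95% interval of 1.04 to 1.30. The exact permutation test within the sets gave p = 0.00571 (adjusted p = 0.183 over all genes, exact permutation). By the limma p it ranked 822 of 19505 genes. The gap between the array sets, -1.51 for set 2 minus set 1, was far larger than the difference between groups, and Ppcs was the only one of the 9 with a gap over 1, as 11.0% of all genes had.

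Vnn1 encodes the pantetheinase vanin-1, an enzyme anchored on the cell surface that is abundant in liver and known as a PPAR alpha target, and Vnn3 a related pantetheinase. Vnn1 lay in set 1 at 9.90, 10.13 and 10.06 in control 1 to 3 and at 10.18, 10.23, 10.24 and 10.25 in knockout 1 to 4, and in set 2 at 10.19, 10.63 and 10.16 in control 4 to 6 and at 10.32, 10.32, 10.19 and 10.61 in knockout 5 to 8. In set 1 the 4 knockout samples were above all 3 controls, whereas in set 2 control 5 and knockout 8 stood together above the other samples and the groups overlapped. Vnn1 differed by 0.12 ± 0.09 (95% interval -0.075 to 0.31; limma, adjusted p = 0.727), by 0.20 in set 1 and 0.035 in set 2. Vnn3 lay in set 1 at 9.77, 9.69 and 9.68 in control 1 to 3 and at 9.55, 9.76, 9.69 and 9.75 in knockout 1 to 4, and in set 2 at 9.07, 8.93 and 8.84 in control 4 to 6 and at 8.67, 8.90, 8.57 and 8.79 in knockout 5 to 8. In set 1 knockout 1 was below the controls and the other 3 knockout samples were among them, and 3 of the 4 knockout samples of set 2 were below every control there. Vnn3 differed by -0.12 ± 0.08 (95% interval -0.28 to 0.040; limma, adjusted p = 0.641), by -0.023 in set 1 and -0.22 in set 2. The interaction of knockout and set was past the threshold for none of the 9 genes (limma, adjusted p = 0.998 for each of Vnn1 and Vnn3). It was past the threshold for 0 of all genes too, with a smallest adjusted p of 0.818 in limma. The adjusted count therefore does not show that the sets agree for the CoA genes. At an unadjusted p under 0.05 the interaction had 0 of the 9, against 4.83% of all genes.

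Nudt7 encodes a peroxisomal hydrolase that cleaves CoA and its thioesters, and Nudt19 another peroxisomal CoA hydrolase, best known in mouse kidney. Nudt7, in its brightest row, lay in set 1 at 11.38, 11.59 and 11.75 in control 1 to 3 and at 11.45, 11.34, 11.57 and 11.51 in knockout 1 to 4, and in set 2 at 10.87, 11.19 and 11.58 in control 4 to 6 and at 10.93, 10.98, 11.21 and 11.04 in knockout 5 to 8. Knockout values lay inside the control range in both sets but for knockout 2, below the controls of set 1. Nudt7 differed by -0.14 ± 0.10 (95% interval -0.35 to 0.073; limma, adjusted p = 0.697), and the controls spread more widely than the knockout samples in both sets. Nudt19 values ran from 10.42 to 10.67 in controls and 10.62 to 10.70 in knockout samples of set 1, and from 9.92 to 10.34 and 10.13 to 10.26 in set 2. Nudt19 differed by 0.064 ± 0.08 (95% interval -0.10 to 0.23; limma, adjusted p = 0.856), by 0.14 in set 1 and -0.014 in set 2.

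Nudt7 was the only CoA gene with more than 1 row, and its 3 rows, each annotated to different RefSeq transcripts, gave different values; the differences between rows were not tested. The array identifiers of rows 2 and 3 carry the word unmapped, and that of row 1 does not. Row 2 was singled out after its values were seen. It lay in set 1 at 8.05, 8.67 and 9.22 in control 1 to 3 and at 7.79, 7.81, 8.03 and 8.13 in knockout 1 to 4, and in set 2 at 8.67, 9.31 and 9.52 in control 4 to 6 and at 8.33, 8.56, 8.85 and 8.95 in knockout 5 to 8. Control 2 and 3 in set 1 and control 5 and 6 in set 2 stood over all 4 knockout samples of their set, while control 1 and control 4 lay inside the knockout range. With every row tested alone, row 2 differed by -0.60 ± 0.17 (95% interval -0.96 to -0.24; limma, unadjusted p = 0.00284, adjusted p = 0.153 over 19572 rows, of which 0.700% were called), by -0.71 in set 1 and -0.49 in set 2. The exact permutation test within the sets gave p = 0.0106 (adjusted p = 0.241, exact permutation). Row 1 differed by -0.14 ± 0.10 and row 3 by -0.11 ± 0.15. Whether the rows share probes is not known here, and after set and group means were removed rows 1 and 2 correlated at r = 0.84, rows 2 and 3 at 0.76 and rows 1 and 3 at 0.57 over the 14 arrays.

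With any 1 array left out, row 2 of Nudt7 differed by -0.72 to -0.46 (limma, adjusted p from 0.0782 to 0.279), short of the threshold each time. Without both control 1 and control 4, an alternative added after seeing the data, the difference was -0.87 (SE 0.14; limma, adjusted p = 0.0297). Those are the controls that lay inside the knockout range for this row, so leaving them out widens the difference by construction, and that p is no test of row 2. Control 1 and control 4 were also the lowest controls of their set for row 1, at -0.29 and -0.51 from the mean of the set's other controls. The same arrays also differed in markers of other liver cells: the mean of 9 endothelial markers stood at -1.15 and -0.74 from those controls, that of 8 Kupffer cell markers at -0.79 and -0.36, and that of 7 stellate cell markers at -0.49 and -0.11. Bile duct markers stood at -0.64 and -0.14 there, neutrophil markers in the opposite direction at 0.54 and 0.30, and hepatocyte markers at 0.092 and 0.035. Mean endothelial marker levels ran from 7.01 to 8.32 in controls and 7.39 to 8.39 in knockout samples, Kupffer cell markers from 8.02 to 8.86 and 8.07 to 8.90, and stellate cell markers from 7.30 to 8.39 and 7.35 to 8.24. The 4 measured bile duct markers ran from 5.76 to 6.99 and 5.44 to 6.95, and the 4 measured neutrophil markers, of which 0 averaged above the array medians, from 4.65 to 5.74 and 4.55 to 5.48. Limma called 0 markers of these 6 lists in either direction, against 0.702% of all genes. In lists this short, a count of 0 does not show that the cells were present alike. The part of these cells in the Nudt7 values was not tested. Without both controls Ppcs, Pank1 and Pank2 differed by 0.22, 0.11 and 0.0097, Pank4 by -0.25 and Nudt19 by 0.097. The brightest Nudt7 row then stood at -0.27, Vnn1 at 0.050, Vnn3 at -0.073 and Pank3 at -0.084, and limma called 0 of the 9.

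**Figure D2:**
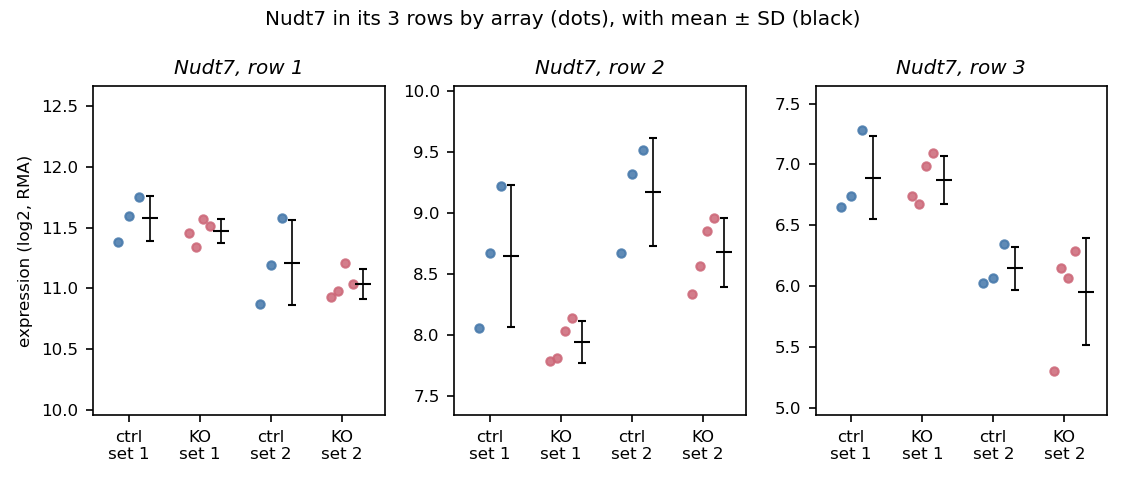
Log2 expression in the 3 array rows of Nudt7 in each of the 14 arrays (dots), by group and array set, with the mean and SD in black. Row 2 shows the knockout arrays low beside 2 of the 3 controls of each set; rows 1 and 3 overlap.

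Related genes were set against each other by the difference of their log2 values in each array, which compares their changes and not their levels. Over 5 such pairs, 0 passed an adjusted p of 0.05 in the exact two-sided permutation test within the sets. Pank1 minus Pank4 stood at 0.29 (95% interval 0.032 to 0.54; exact permutation p = 0.0367, adjusted p = 0.0918), with 5 of 8 knockout samples above every control of their set. Vnn1 minus Vnn3 stood at 0.24 (95% interval 0.031 to 0.44; exact permutation p = 0.0286, adjusted p = 0.0918), also with 5 of 8 above, by 0.22 in set 1 and 0.25 in set 2. Single controls decided whether these pairs passed. Vnn1 minus Vnn3 was 0.30 without control 5 (exact permutation, adjusted p = 0.00952), 0.22 without control 6 (adjusted p = 0.200) and 0.12 without control 1 and control 4 (adjusted p = 0.173). Pank1 minus Pank4 was 0.34 without control 4 (exact permutation, adjusted p = 0.0381), 0.24 without control 6 (adjusted p = 0.200) and 0.36 without control 1 and control 4 (adjusted p = 0.0519). Among the controls of set 2, control 5 was highest for Vnn1 minus Vnn3 and control 4 for Pank1 minus Pank4. Leaving out that control widens the difference of its pair by construction, so the p-values of 0.00952 and 0.0381 (exact permutation, adjusted) are no test of these pairs. Nudt7 against Nudt19 stood at -0.20 (95% interval -0.46 to 0.058, adjusted p = 0.145 by exact permutation) and at -0.15 without control 6 (adjusted p = 0.302). It was -0.32 without control 4 (exact permutation, adjusted p = 0.0190) and -0.37 without control 1 and control 4 (exact permutation, adjusted p = 0.0222). Control 1 and control 4 were the lowest controls of their sets for Nudt7. Leaving them out therefore widens this difference by construction, and those p-values are no test of the pair. Pank1 against Pank2 stood at 0.097 (95% interval -0.021 to 0.21) and against Pank3 at 0.068 (95% interval -0.14 to 0.28), with adjusted p of 0.145 and 0.481 by exact permutation.

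**Figure D3:**
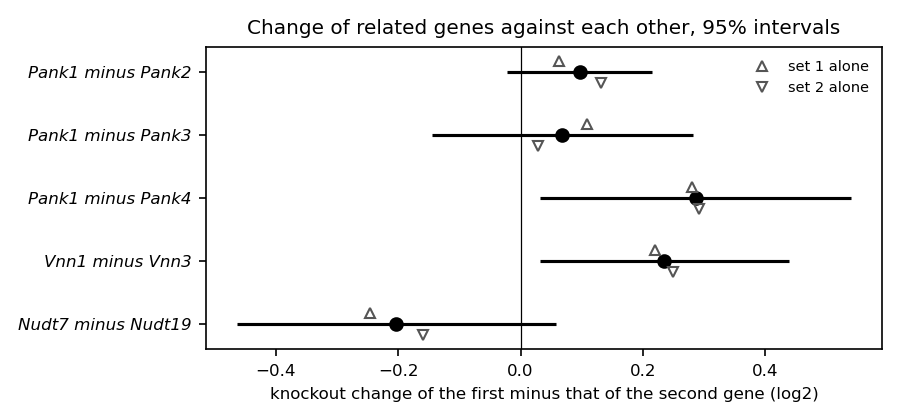
Change of the first gene minus that of the second between knockout and control arrays (log2), for 5 pairs of related CoA genes. Dots and lines are the value and its 95% interval with the array set as a term, triangles the values in each set alone; the intervals of Pank1 minus Pank4 and Vnn1 minus Vnn3 exclude 0, and neither pair passed the adjusted exact permutation test.

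Of 8 further genes of CoA handling, 7 were measured and Nudt8 was not analysed here. Limma called 0 of the 7 in either direction, against 0.702% of all genes, and 1 of them, Dcakd, had an unadjusted p under 0.05, against 10.4%. The exact permutation test had 2 of the 7, Dcakd (p = 0.0155) and Slc25a42 (p = 0.0498), at an unadjusted p under 0.05, against 10.9% of all genes. After adjustment it had 0 of the 7, and 0 of all genes. Dcakd, named for the dephospho-CoA kinase domain of its protein, differed by 0.27 ± 0.09 (95% interval 0.079 to 0.46, limma, adjusted p = 0.242), by 0.32 in set 1 and 0.22 in set 2. For Dcakd 7 of 8 knockout samples were above every control of their set, as at least 7 were for 2.18% of all genes, and knockout 5 was below them. Without knockout 5 the Dcakd difference was 0.33 (limma, adjusted p = 0.0686). Leaving out that low sample widens it by construction. Slc25a42, which carries CoA into mitochondria, differed by 0.13 ± 0.07 (limma, adjusted p = 0.566), Slc25a17, a peroxisomal carrier of CoA and other cofactors, by 0.079 ± 0.07, and Slc25a16, a related mitochondrial carrier, by 0.00095 ± 0.06. Ppcdc, the decarboxylase that follows Ppcs, differed by -0.024 ± 0.08, Slc5a6, which brings pantothenate into cells, by -0.029 ± 0.10, and Aasdhppt, which transfers the phosphopantetheine arm of CoA to carrier proteins, by 0.072 ± 0.08. 

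**Figure D4:**
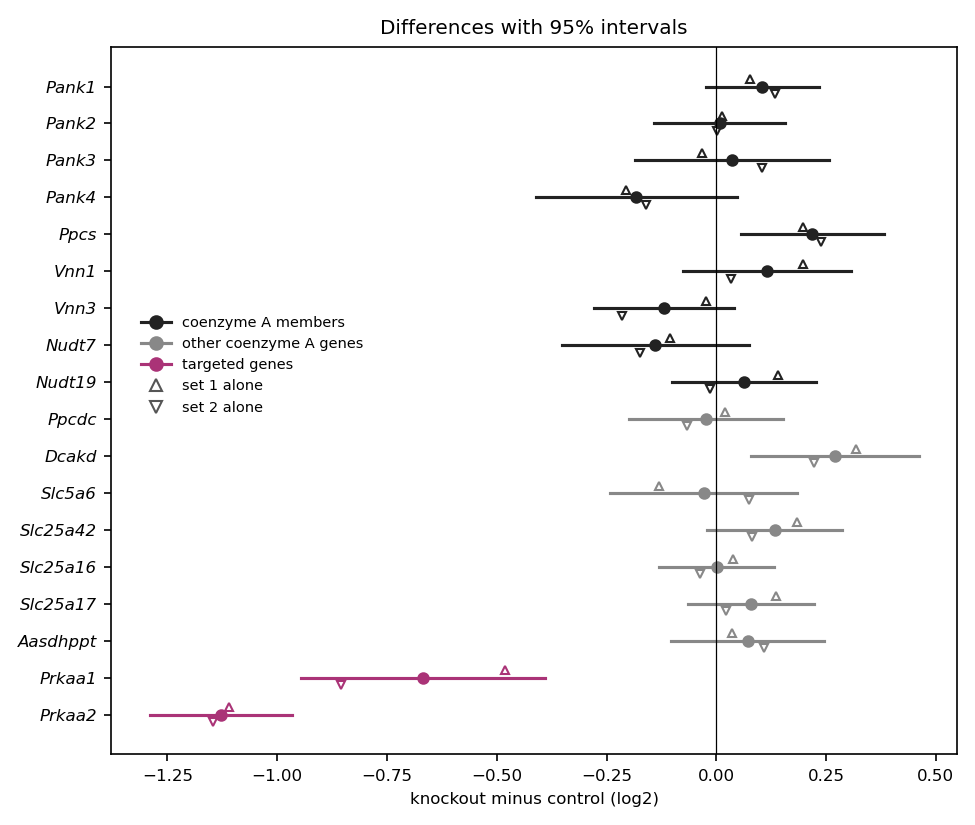
Knockout minus control difference (log2) with its 95% interval for the 9 CoA genes, 7 further genes of CoA handling and the 2 targeted genes, from limma with the array set as a term, with the difference in each set alone as triangles. The intervals of Ppcs and Dcakd lie above 0 without passing the adjusted threshold, and the targeted genes lie at -1.13 and -0.67.

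The array sets differed more in these genes than the knockout and control samples did. The gap of set 2 minus set 1 ran from -1.51 (Ppcs) to 0.39 (Pank3), with a median size of 0.443 beside 0.297 over all genes, and it was more than 3 times the knockout difference for 7 of the 9, as it was for 56.2% of all genes. Pank1 had a gap of -0.64 and Vnn3 of -0.88, and Vnn1 one of 0.21. For 7 of the 9 genes the knockout difference had the same sign in each set alone, the exceptions being Pank3 and Nudt19, beside 55.3% of all genes.

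Set and group means were removed to compare how the CoA genes varied among themselves. Of 36 pairs, 22 had a positive and 14 a negative correlation over the 14 arrays, with a median r of 0.13, and the points share array sets and normalization. The closest pair was Pank2 and Ppcs (r = 0.81), and the next was Pank1 and Vnn1 (0.48). The most opposed pairs were Vnn1 and Nudt19 (-0.63) and Vnn3 and Nudt7 (-0.61). Knockout 5 stood furthest from its set and group mean for Pank2 and for Ppcs, and control 5 for Vnn1 and for Nudt19. The r values of these 2 pairs therefore lean on those arrays, and r without them was not computed. Among 11829 other genes with a mean of at least 5, those most like Ppcs over the 14 set-centred arrays were Zfp637, a zinc finger gene (r = 0.89), Stim1, an endoplasmic reticulum calcium sensor (0.89), Sugt1, a cochaperone (0.87), Psmb3, a proteasome subunit (0.87), and Xk (0.84). Those most like Pank1 were Pex19, which inserts peroxisomal membrane proteins (0.93), Cct2, a chaperonin subunit (0.93), Psma6, a proteasome subunit (0.92), Ndufb7, a subunit of respiratory complex I (0.91), and Retsat, retinol saturase (0.90). Set-centred Pank1 stood furthest from 0 in control 6 (-0.23), then in control 1 (-0.099). The r values of its likest genes therefore lean on control 6, and r without that array was not computed. None of these 10 genes was called by limma, with adjusted p from 0.286 (Sugt1) to 0.565 (Psmb3).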

How the data were processed

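Liver RNA from 6 control and 8 knockout samples was labelled with an Affymetrix WT PLUS kit, per the labels' protocols. The authors deposited log2 values, 22206 rows by 14 arrays, made with RMA and Partek per the submitters' processing notes, which give no versions; the log2 scale was inferred from the values (2.13 to 13.8), and the background level and build are not given in the sources used here. Arrays have no read depth, so the number of arrays limits the precision.

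Gene symbols came from the platform annotation, updated by gene identifier: 19572 rows had 1 symbol, none had several and 2634 were not named. For 55 genes with over 1 row the brightest row was used, leaving 19505 genes. Array sets were found by average-linkage clustering of array correlations. Knockout was compared with control in limma 3.58.1 (R 4.3.3) with set in the model (11 residual degrees of freedom), and by exact permutation within sets. The fits and the permutation test were tested on simulated data. Members, lists, tests and the set term were chosen with earlier results of these data known; tests of single rows were added after seeing the data. The genes named are the CoA genes, further CoA genes, targeted genes and the 5 genes most like each of the 2 CoA genes with the smallest p, leaving out predicted genes, clones and small RNA genes.

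Alternatives were the fit without the set, each set alone, leaving out dim genes, quantile and median normalization, trend and robust options, array weights, a replicate block, left-out arrays, averaged repeats, the mean of rows, other thresholds and permutation. Knockout 7 and 8 carry in their descriptions the same numbers as knockout 5 and 6, but no 2 arrays were identical throughout: correlations were 0.989 for knockout 5 with 7 and 0.991 for 6 with 8, against 0.989 to 0.991 for the other pairs of knockout samples of that set. Each was counted as a sample.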

Additional observations from a re-analysis of the deposited data

Results flagged for a closer look

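Single samples standing away from their group were found in 3 of 36 checks, 4 per gene, each checking the highest or lowest sample against the range of its group. Chance gives about 1 in 20 for a check of samples from 1 common spread. Checks over all 8 knockout samples pooled both array sets and shared samples with those within a set, so that rate is only rough for them. Pank2 was 9.03 in knockout 5, against 8.85 in the next of the 8 knockout samples. Vnn1 was 10.61 in knockout 8, against 10.32 in the next, and control 5 of the same array set lay at 10.63. Nudt19 was 10.26 in knockout 5, against 10.13 in each of the other 3 knockout samples of set 2. The adjusted interaction test in limma called 0 CoA genes and 0 of all genes, so it does not show that the array sets agree.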

How the results depend on the processing

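Under all 30 alternatives 0 CoA genes were called in either direction, and 0 of the further CoA genes, although the number of genes called over all named genes ran from 0 (no set term, or exact permutation, whose smallest adjusted p was 0.0856) to 325 (trend and robust options), beside 137 in the reported fit. Over 12240 genes with a mean of at least 5 it was 222, at a threshold of 0.1 it was 242 and at 0.01 it was 18, in either set alone 2, with arrays of repeated description averaged 67, without knockout 7 and knockout 8 it was 12, without control 1 and control 4 it was 26, and with 1 array left out 44 to 132. Pank1, Pank4, Ppcs, Vnn1, Vnn3 and Nudt7 kept their sign under every alternative run, with Ppcs between 0.18 and 0.25 and Pank1 between 0.068 and 0.13. Single controls moved differences by over 1.5 times: Pank1 was 0.068 without control 6, Pank4 -0.10 without control 3, Vnn1 0.19 without control 5, Nudt7 -0.21 without control 4 and -0.056 without control 6, and Nudt19 0.029, 0.11 and 0.017 without control 2, 4 and 5. Nudt7 also moved with the choice of row and model, to -0.28 with the mean of its rows and -0.24 with the replicate block.

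Differences near 0 changed sign. With 1 array left out, Pank2 ran from -0.023 to 0.037, Pank3 from -0.044 to 0.11, Ppcdc from -0.055 to 0.019, Slc5a6 from -0.096 to 0.042 and Slc25a16 from -0.023 to 0.021. In set 1 alone Pank3 was -0.032 and Ppcdc 0.020, and in set 2 alone Nudt19 was -0.014, Slc5a6 0.074 and Slc25a16 -0.036. Quantile normalization gave -0.012 for Pank2 and -0.0093 for Slc25a16, and array weights -0.0065 for Pank2. Pank3 was -0.084 without control 1 and control 4, and Ppcdc 0.016 without knockout 7 and knockout 8. The cause was not tested.

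Of the 2 targeted genes, 0 were called without the set term and by exact permutation, and 1 in set 1 alone, in set 2 alone, at a threshold of 0.01, without control 1 and control 4 and without knockout 7 and knockout 8; with 1 array left out 1 to 2 were called. Among the related pairs, leaving out 1 array gave 0.22 to 0.34 for Pank1 minus Pank4 and 0.18 to 0.30 for Vnn1 minus Vnn3. For Nudt7 minus Nudt19 it gave -0.32 to -0.15. That pair was -0.37 without control 1 and control 4, which widens it by construction.

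The titles number control and knockout samples alike, and the deviations of same-numbered samples correlated only weakly, at 0.023 to 0.087 over 6 pairs. Samples with different numbers were not compared, and number 4 joined samples of different sets. Whether the numbers pair samples is therefore not settled. With the number as a replicate block 0 CoA genes, 1 targeted gene and 2 of all genes were called, Ppcs stood at 0.25 and Pank1 at 0.12, Slc5a6 at 0.026 and Aasdhppt at -0.015.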
